A study of Caenorhabditis elegans with 2 samples.

Results

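The tRNA gene loci of the C. elegans nuclear genome are 612 short regions, chosen from the 46890 nuclear genes of the Ensembl annotation of WBcel235 (the same assembly as ce11). Every nuclear gene annotated as tRNA was taken and extended by 200 bp on both sides, which gave loci with a median width of 472 bp. No measured value entered this choice. At each locus the largest peak signal of EFL-3, an E2F family protein studied with a tag, was read from the pooled peak list and from the list of each replicate, at the summits that fell inside the locus. The genes had a median length of 72 bp (64 to 122 bp), and 276 of them (45.1%) lie on the X chromosome.

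Transfer RNA genes are transcribed by RNA polymerase III, which also makes 5S ribosomal RNA and several other small RNAs. The promoter of a tRNA gene lies inside the transcribed sequence, in an A box near its start and a B box further in, which are bound by the factor TFIIIC, and transcription ends at a run of T. Many tRNA genes exist as identical copies scattered over the genome, so a cell can draw a tRNA from any of several loci. EFL-3 is an atypical member of the E2F family of transcription factors, related to mammalian E2F7 and E2F8, and E2F proteins are known chiefly for the genes of the cell cycle that RNA polymerase II transcribes.

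Chromatin immunoprecipitation with sequencing (ChIP-seq) with an antibody against GFP was performed on whole L1 larvae, pooled over the sexes, 6 hours of age and held without food after bleaching. The worms were of the strain OP344, which has the allele unc-119(tm4063) and the integrated transgene wgIs344, written [F49E12.6::TY1::EGFP::3xFLAG + unc-119(+)] in the labels, where F49E12.6 is efl-3. The peaks therefore report the tagged protein made from 1 integrated line, and untagged worms were not analysed here. The design holds 1 group with 2 biological replicates, so no groups were compared, and a whole animal offers no cell type to check against markers.

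The deposited peaks comprise 1 relaxed list of 30000 peaks for each replicate, 1 of 30000 peaks for the replicates pooled, and a reproducible set of 430 peaks thresholded by the authors. Each peak's signal, the authors' own value, measures enrichment over 1 control alignment that all lists share, and it has no unit. The reproducible set consists of the strongest 430 pooled peaks, with signals of 94.8 and above, so a place in it says how strong the pooled peak was. The sequencing depth is unknown, since the lists carry no read counts, and loci are not replicates of a condition. For these reasons shares are set beside a background of windows as wide as a median locus, and no p-value is given.

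The sequences of the regions with the strongest pooled peaks, and of the strongest autosomal locus, are shown first. They were chosen by pooled signal, and their loci also stood among the strongest 430 peaks of both replicates. They come from the RefSeq genome of build WBcel235 (ce11), and RefSeq names an amino acid, but no anticodon, for 607 of the 612 genes. Capitals mark the annotated tRNA gene, and lower case marks its surroundings. C28G1.t1 (Glu) is at chrX:8836015-8836194 on the + strand, with its pooled summit at base 11 of the 180 printed. F41D9.t3 (Asn) is at chrX:8404489-8404581 on the + strand, with the summit at base 71. The head-to-head pair C53C7.t2 and C53C7.t1 (both Ser) is at chrX:13046366-13046659, shown on the + strand with the summit at base 177, between the genes. R11.t1 (Tyr) is at chrX:16209759-16209923 on the - strand, with the summit at base 11. The head-to-head pair M02F4.t2 (Glu) and M02F4.t1 (Gly) is at chrX:3035976-3036235, shown on the + strand with the summit at base 152, between the genes. W03G11.t1 (Lys) is at chrX:12106137-12106229 on the - strand, with the summit at base 62. F56F3.t1 (Arg) is at chrIII:4470876-4470999 on the - strand, with the summit at base 11. In each pair the left gene is transcribed to the left.
C28G1.t1: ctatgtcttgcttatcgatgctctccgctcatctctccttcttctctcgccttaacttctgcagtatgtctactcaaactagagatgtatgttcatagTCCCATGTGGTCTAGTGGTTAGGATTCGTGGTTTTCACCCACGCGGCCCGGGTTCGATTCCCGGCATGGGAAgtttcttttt
F41D9.t3: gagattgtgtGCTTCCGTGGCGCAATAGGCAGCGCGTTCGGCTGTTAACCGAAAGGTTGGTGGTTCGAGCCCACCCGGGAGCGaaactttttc
C53C7.t2 and C53C7.t1: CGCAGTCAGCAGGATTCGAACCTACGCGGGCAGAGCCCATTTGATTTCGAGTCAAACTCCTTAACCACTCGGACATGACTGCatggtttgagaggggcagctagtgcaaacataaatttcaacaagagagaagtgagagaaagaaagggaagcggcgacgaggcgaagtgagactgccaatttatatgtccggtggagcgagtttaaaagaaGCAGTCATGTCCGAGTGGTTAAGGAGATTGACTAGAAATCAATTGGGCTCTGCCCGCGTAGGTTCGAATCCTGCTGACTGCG
R11.t1: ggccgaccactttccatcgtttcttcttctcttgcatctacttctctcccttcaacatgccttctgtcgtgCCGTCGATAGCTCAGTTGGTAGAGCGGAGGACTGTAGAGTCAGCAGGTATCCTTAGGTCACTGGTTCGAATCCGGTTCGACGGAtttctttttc
M02F4.t2 and M02F4.t1: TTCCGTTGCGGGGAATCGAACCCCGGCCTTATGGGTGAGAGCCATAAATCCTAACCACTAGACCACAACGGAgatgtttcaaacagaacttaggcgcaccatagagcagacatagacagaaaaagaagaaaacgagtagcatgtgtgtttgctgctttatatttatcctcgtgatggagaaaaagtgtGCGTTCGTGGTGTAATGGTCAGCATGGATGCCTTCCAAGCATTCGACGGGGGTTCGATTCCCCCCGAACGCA
W03G11.t1: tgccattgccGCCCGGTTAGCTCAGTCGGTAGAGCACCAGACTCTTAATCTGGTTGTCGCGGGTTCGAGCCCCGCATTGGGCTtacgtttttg
F56F3.t1: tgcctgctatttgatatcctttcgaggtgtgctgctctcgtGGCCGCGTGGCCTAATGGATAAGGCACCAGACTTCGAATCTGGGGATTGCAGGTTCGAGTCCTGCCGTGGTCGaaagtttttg

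Below them stand 2 members of a family of 24 identical proline tRNA genes, shown because the same gene sequence had a reproducible peak at one place and no summit at the other. Capitals again mark the gene, with 50 bases before it and 20 after it. ZK899.t1 is at chrX:9467709-9467850 on the - strand, and its pooled summit is at base 87 of the stretch, inside the gene. C48C5.t1 is at chrX:8969688-8969829 on the + strand and held no summit in any list. The genes are identical over their 72 bases, while 17 of the 50 bases upstream match at the same position.
ZK899.t1: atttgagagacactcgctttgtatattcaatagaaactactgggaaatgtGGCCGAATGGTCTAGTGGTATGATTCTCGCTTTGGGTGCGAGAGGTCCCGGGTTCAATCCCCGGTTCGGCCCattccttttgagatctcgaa
C48C5.t1: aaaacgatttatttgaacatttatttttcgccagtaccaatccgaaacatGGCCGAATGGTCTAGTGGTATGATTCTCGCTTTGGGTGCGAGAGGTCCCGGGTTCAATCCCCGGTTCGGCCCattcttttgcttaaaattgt

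Peaks were found at tRNA loci far more often than over the genome. A pooled summit lay in 248 of the 612 tRNA loci (40.5%), against 13.7% of windows of equal width tiled over the nuclear genome and 16.8% of such windows centred on the starts of protein-coding genes. The share at tRNA loci was 2.96 times that of the tiled windows. Each replicate alone gave a similar share: replicate 1 had a summit in 236 tRNA loci (38.6%), against 13.6% of windows, and replicate 2 in 227 (37.1%), against 13.7% of windows. A summit of the reproducible set lay in 20 tRNA loci (3.27%), against 0.201% of the tiled windows and 0.911% of windows at protein-coding starts. That share was 16.3 times the share of the tiled windows. The 20 loci held 17 different summits, since 3 summits each fell in the loci of a neighbouring pair, and these made up 3.95% of the 430 reproducible peaks.

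Summits gathered at the tRNA genes and fell off within 1000 bp. Per 100 tRNA genes and 100 bp, the pooled list had 12.3 summits in the bin centred 100 bp upstream of the middle of the gene, 10.9 in the bin over the middle and 9.97 in the bin 100 bp downstream. Bins 1000 bp or farther away averaged 3.20, close to the genome average of 2.99. The replicates had the same form, with a highest bin of 13.1 in replicate 1, 100 bp upstream, and of 10.5 in replicate 2, over the middle of the gene. For the reproducible set the highest bin held 1.63 summits, against 0.106 in the far bins.

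**Figure D1:**
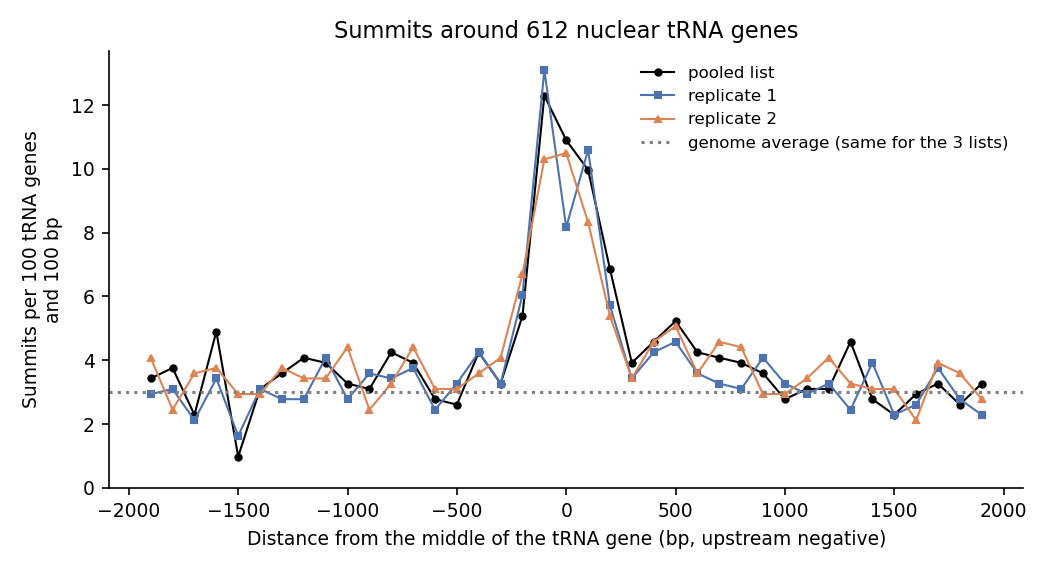
Number of summits per 100 tRNA genes and 100 bp (vertical axis, from 0) by distance in bp from the middle of the tRNA gene (horizontal axis, upstream negative), for the pooled list, replicate 1 and replicate 2, over 612 genes. All 3 lines stand at 8 or more in the bins from -100 to 100 bp and lie near the dotted genome average of 2.99 beyond 1000 bp.

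The summits did not lie at 1 fixed point of the gene. Over the 252 different pooled summits in tRNA loci, the median position was 39 bp downstream of the gene's first base, with quartiles at -46.5 and 123.75 bp. Upstream of the gene lay 42.1% of them, in the gene 19.8% and downstream 38.1%, where the same stretches make up 42.4%, 15.3% and 42.4% of the bases of the loci. The 17 reproducible summits lay closer in, with a median of 5 bp and quartiles at -37 and 50 bp. Of these, 8 were upstream of the gene, 8 in it and 1 downstream, and 16 lay within 100 bp of the gene's first base. The summit is the middle of a called interval in most peaks, so its position is coarse on the scale of a gene of 72 bp.

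The signals at tRNA loci were moderate. Over the 248 tRNA loci with a pooled summit, the signal ran from 32.5 through a median of 51.6 to 184.2, with quartiles of 40.9 and 67.8. The median over all 30000 pooled peaks was 41.6, over tiled windows with a summit 41.8, and over windows at protein-coding starts with a summit 43.6. Of the 248 loci, 182 (73.4%) had a signal above the median of the list, as had 75.4% of the loci with a summit in replicate 1 and 66.1% of those in replicate 2. The strongest pooled peak of the genome had a signal of 508.5, well above every tRNA locus. By the deposited q-value, few tRNA loci were called. A pooled q below 0.05 was found at 7 of the 612 loci (1.14%), against 0.121% of windows, and below 0.1 at 15 (2.45%), against 0.171%. The 7 loci were all on X, and among them the C53C7 and M02F4 pairs each share a summit. In replicate 1, 15 loci were below 0.05 (2.45%), against 0.165% of windows, and 19 below 0.1 (3.10%), against 0.198%. In replicate 2, 7 loci were below 0.05 (1.14%), against 0.0927% of windows, and 10 below 0.1 (1.63%), against 0.119%.

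**Figure D2:**
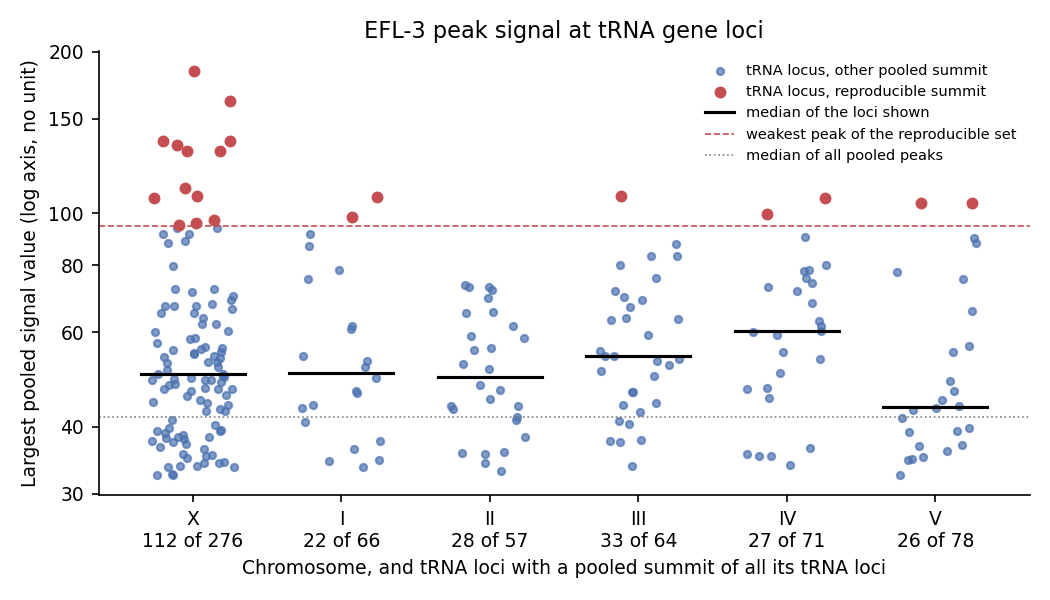
Largest pooled signal (vertical log axis, no unit) of each tRNA locus with a pooled summit, by chromosome, with the counts of loci under each name. Black bars are medians, red points are the 20 loci with a reproducible summit (13 on X, none on II), the dashed line is the weakest reproducible peak and the dotted line the median of all pooled peaks. Points are spread sideways for legibility.

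C28G1.t1, a glutamate tRNA gene on X, had the highest signal of all tRNA loci: 184.2 in the pooled list, 112.5 in replicate 1 and 62.1 in replicate 2. Its ranks were 88 in the pooled list, 74 in replicate 1 and 216 in replicate 2. The pooled summit lay 88 bp upstream of the tRNA gene and 9 bp downstream of the annotated start of C28G1.2, a protein-coding gene on the same strand that overlaps the tRNA gene in an exon. It also lay in the promoter window (1000 bp upstream to 500 bp downstream of a start) of sec-15, which encodes a subunit of the exocyst. At this locus a summit of the tRNA gene and one of a protein-coding promoter cannot be told apart.

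F41D9.t3, an asparagine tRNA gene in an intron of sulp-3 and on the opposite strand to it, came next. Its signals were 162.1 in the pooled list, 95.3 in replicate 1 and 68.6 in replicate 2. The pooled summit lay 60 bp into the gene of 73 bp, and 3808 bp from the nearest protein-coding start, that of sulp-3, a sulfate permease family member. Here the summit had no protein-coding promoter near it.

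The pair C53C7.t1 and C53C7.t2, both serine tRNA genes, lay head to head with 130 bp between them, and the summit fell in that gap. The shared signal was 136.5 in the pooled list, 62.9 in replicate 1 and 69.1 in replicate 2. The pair M02F4.t1 and M02F4.t2, of glycine and glutamate tRNA genes, had the same arrangement with a gap of 116 bp. Its signals were 130.9 in the pooled list, 65.2 in replicate 1 and 65.9 in replicate 2, and the 3 summits lay within 3 bp of each other. In both pairs the peak lay upstream of both genes and could not be assigned to one of them.

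R11.t1, a tyrosine tRNA gene, had signals of 133.8 in the pooled list, 58.9 in replicate 1 and 81.4 in replicate 2, the highest of any tRNA locus in that replicate. Its pooled summit lay 61 bp upstream. W03G11.t1, a lysine tRNA gene nearest to the start of the collagen gene col-181, had signals of 111.6 in the pooled list, 62.9 in replicate 1 and 52.3 in replicate 2. F56F3.t1, an arginine tRNA gene, had the highest pooled signal on an autosome, with 107.9 in the pooled list, 58.3 in replicate 1 and 52.2 in replicate 2. These 3 loci, C28G1.t1, F41D9.t3 and both pairs are the 9 loci among the strongest 430 peaks of each replicate.

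The other 11 reproducible tRNA loci had pooled signals between 95.1 and 107.8, and each of them ranked below the strongest 430 in 1 replicate or both. ZK899.t1, of the proline family shown above, had 107.8 in the pooled list, at ranks 683 in replicate 1 and 267 in replicate 2. T23F1.t1 (Lys) and T23F1.t2 (Pro), tail to tail on V with 66 bp between them, shared a summit of 104.5 that also lay in the promoter windows of pqn-71 and rocf-1. F12D9.t3 (Val) had a pooled signal of 97.1. C33G3.t2 (Lys) had 96.0, at rank 1533 in replicate 1 and 299 in replicate 2. C04A11.t1 (Leu), a gene of 119 bp and the only reproducible one without an identical copy, had 95.1, at rank 309 in replicate 1 and 1866 in replicate 2. By pooled signal alone, the weakest reproducible tRNA loci stood close to those just outside the set. F46G11.t1 and F46G11.t2, a proline pair, shared a signal of 94.0, ZK154.t5 had 91.4, and F17H10.t1 and M01E5.t1 had 91.3 each. Of these, F46G11.t2, ZK154.t5 and M01E5.t1 held no summit of replicate 2, while F46G11.t1 and F17H10.t1 held one. At F46G11.t1 the replicate 2 summit lay 126 bp from the pooled one.

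Arginine tRNA genes made up 6 of the 20 reproducible loci. Besides F56F3.t1 these were F47G6.t1 with 107.3 in the pooled list, M57.t1 with 106.9, F09B9.t1 with 106.8, F13G11.t1 with 99.7 and F14B4.t1 with 98.4. They came from 4 families of identical genes. F47G6.t1 lay in an intron of spe-15, a myosin gene, M57.t1 in an intron of unc-33, which acts in axon outgrowth, and F14B4.t1 in an intron of F14B4.1. The replicates differed at several of them. F09B9.t1 had 42.8 in replicate 1 (rank 1136) and 69.5 in replicate 2 (rank 161), while M57.t1 had 66.9 in replicate 1 (rank 254) and 39.7 in replicate 2 (rank 1243).

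**Figure D3:**
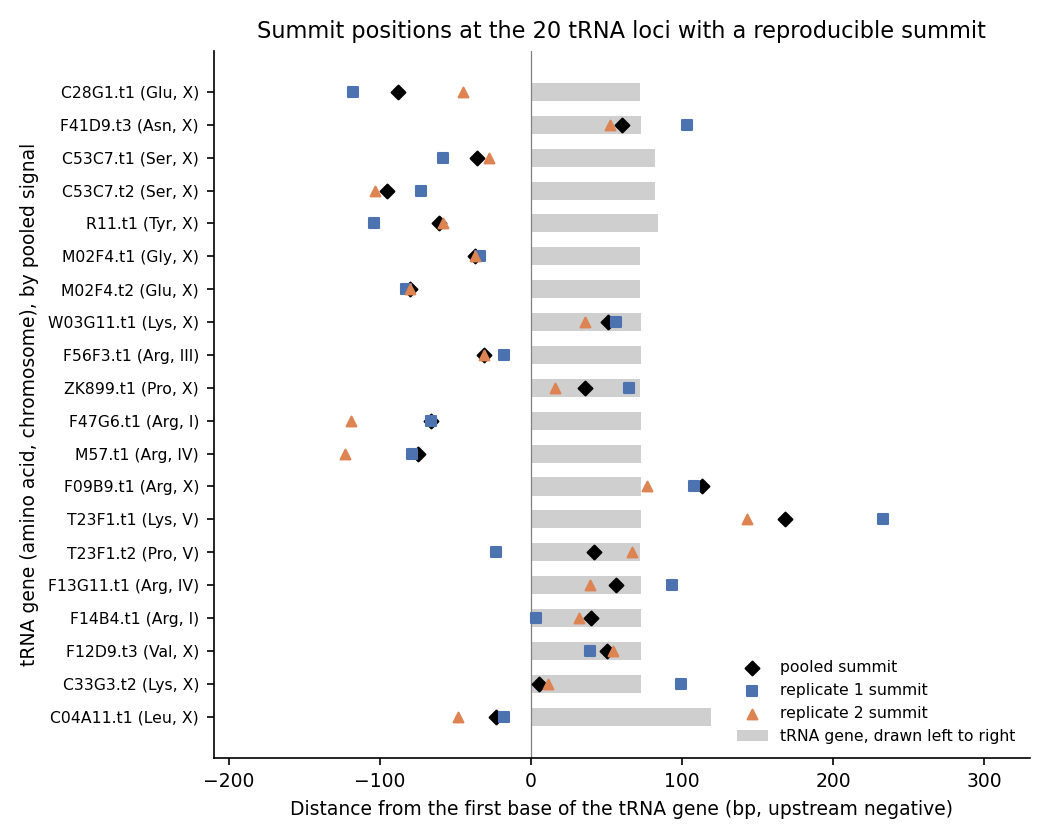
Positions of the pooled, replicate 1 and replicate 2 summits at the 20 tRNA loci with a reproducible summit, in bp from the first base of each tRNA gene (grey bar, drawn left to right), in order of pooled signal. Most summits lie within 100 bp of the first base, some upstream and some in the gene, and the pairs C53C7, M02F4 and T23F1 share their summits.

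The replicates shared fewer of the loci than they differed at. A summit of both replicates lay in 143 tRNA loci (23.4%), against 4.61% of tiled windows, a ratio of 5.07. Replicate 1 alone had a summit in 93 loci, replicate 2 alone in 84, and neither in 292. None of the 3 relaxed lists had a summit in 280 of the 612 tRNA loci (45.8%). Within the 143 shared loci the replicate summits were a median of 52 bp apart, and 90 pairs lay within 100 bp.

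Over those 143 loci, Spearman's rho between the signals of the replicates was 0.40 and Pearson's r of their log10 values 0.49. The points share 1 control alignment and the sequence of each locus, and some loci share summits, so these values describe the lists. All 20 reproducible loci had a summit in both replicates, at ranks of 74 to 1533 in replicate 1 and 97 to 1866 in replicate 2. Among the strongest 430 peaks stood 19 tRNA loci in replicate 1 and 24 in replicate 2, against 20 in the pooled list. R04A9.t1, a glutamine tRNA gene in an intron of ZK1193.2, was among the strongest tRNA loci of replicate 1 and lies outside the reproducible set. Its signals were 87.9 in the pooled list, 76.9 in replicate 1 (rank 180) and 41.6 in replicate 2 (rank 957). The replicate 2 summit lay 268 bp from the pooled one, on the other side of the gene, so these values are not of the same summit. The pooled summit also lay in the promoter window of ZK1193.2.

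**Figure D4:**
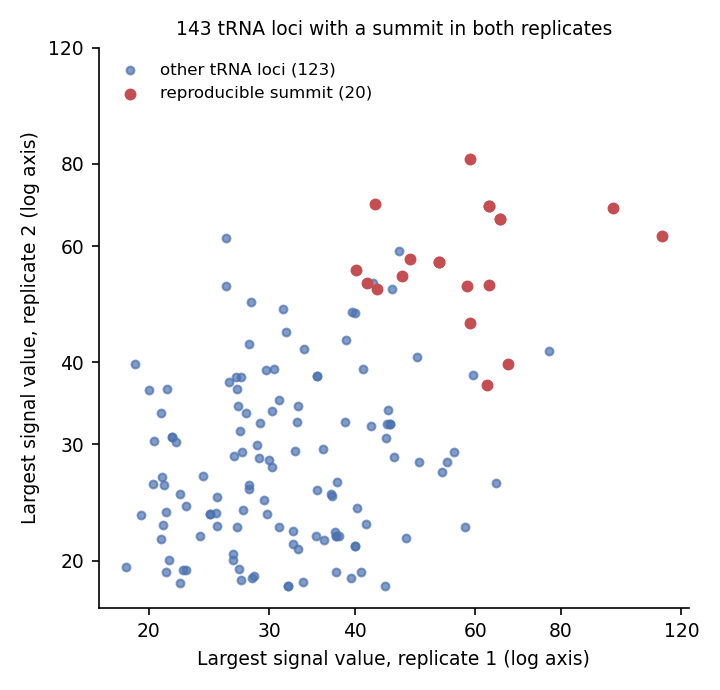
Largest signal of replicate 2 against that of replicate 1 (both log axes, no unit) for the 143 tRNA loci with a summit in both replicates, of which 20 have a reproducible summit (red, where loci that share a summit coincide). The reproducible loci lie toward the upper right, and the others spread widely, with a rho of 0.40 over all points.

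X-linked and autosomal tRNA loci had nearly the same share with any pooled summit, but the strongest loci were mostly on X. A pooled summit lay in 112 of 276 X loci (40.6%), against 12.8% of X windows, and in 136 of 336 autosomal loci (40.5%), against 13.9% of autosomal windows. The median signal was 50.1 over the X loci and 52.6 over the autosomal loci. A reproducible summit lay in 13 X loci (4.71%), against 0.213% of X windows, and in 7 autosomal loci (2.08%), against 0.198% of autosomal windows. The ratio to the windows was 22.1 on X and 10.5 on the autosomes. These shares count loci, and the loci held 11 different summits on X and 6 on the autosomes. The 8 strongest tRNA loci were all on X, and among them the C53C7 and M02F4 pairs each share a summit. At the top of the replicate lists, 12 of the 19 loci of replicate 1 and 13 of the 24 loci of replicate 2 among the strongest 430 peaks were on X. Of all tRNA loci, 45.1% lie on X, so the count of replicate 2 is not far from that share. For all summits of a replicate the order was the other way, with 35.1% of X loci and 41.4% of autosomal loci in replicate 1, and 36.6% of X loci and 37.5% of autosomal loci in replicate 2.

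Seen from the peaks, tRNA loci held 11 of the 80 reproducible X peaks (13.8%) and 6 of the 350 autosomal ones (1.71%). Over the whole pooled list they held 109 of the 4955 X peaks (2.2%) and 143 of the 25045 autosomal ones (0.571%). A higher share on X was thus already there among all pooled peaks. Genes for tRNA are themselves dense on X, where 45.1% of them lie. The share varied over the autosomes, and III had the highest share of both loci and windows. A pooled summit lay in 51.6% of the tRNA loci of chromosome III, against 16.7% of its windows, and in 49.1% of those of II, against 13.1% of its windows. The shares were 38.0% on IV, against 12.9% of windows, 33.3% on I, against 15.4%, and 33.3% on V, against 12.2%. The highest signal on II was 73.4, so that none of its 57 tRNA loci was reproducible.

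By amino acid, the shares with a pooled summit ran from 53.7% of 41 glutamate genes and 51.6% of 31 valine genes to 29.6% of 27 glutamine genes, with 5 of 20 histidine genes as the lowest. Each group with 10 or more genes stood above the 13.7% of the tiled windows. The single selenocysteine tRNA gene, K11H12.t1, had signals of 72.9 in the pooled list, 42.2 in replicate 1 and 32.0 in replicate 2. It lies in an intron of K11H12.8, on the same strand, and its pooled summit also lay in the promoter window of K11H12.8. None of the 5 genes with no amino acid in RefSeq had a pooled summit. The reproducible loci spread over 10 amino acids, led by arginine with 6 of 44 genes and lysine with 3 of 46. With so few genes per amino acid, the order of the groups rests on a handful of loci.

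**Figure D5:**
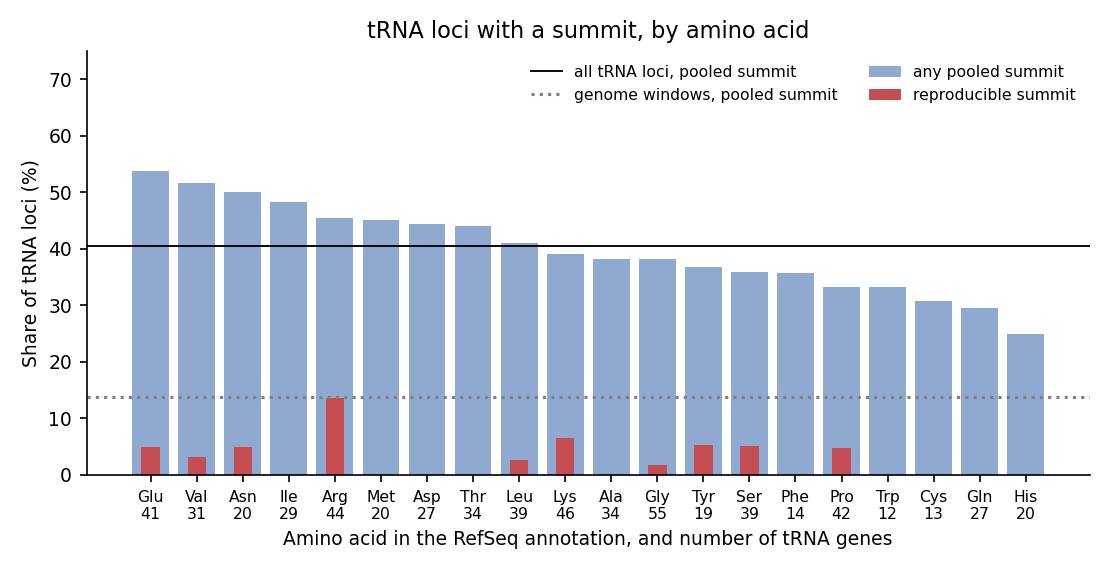
Share of tRNA loci (vertical axis in percent, from 0) with a pooled summit (wide bars) and with a reproducible summit (narrow bars), by amino acid, with the number of genes under each name. Every wide bar stands above the dotted line of the genome windows at 13.7%, and the black line marks all tRNA loci at 40.5%. Selenocysteine (1 gene) and the 5 undetermined genes are left out.

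Identical genes did not carry identical peaks. The 612 genes have 200 different sequences, and 469 genes have at least 1 identical copy. In the largest family, 29 glycine genes, 13 loci had a pooled summit, with signals from 39.4 to 130.9, and 16 had none. In the family of 24 proline genes, 7 loci had a pooled summit and 14 had none in any relaxed list. ZK899.t1 and T23F1.t2 of this family were in the reproducible set, and C48C5.t1 had no summit. Loci of genes with 10 or more identical members had a pooled summit in 42.0% of 317 cases, those with 2 to 9 in 44.7% of 152, and those with no copy in 32.9% of 143. Of the 20 reproducible loci, 12 belonged to the first of these groups, 7 to the second and 1, C04A11.t1, to the last.

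Reads from identical copies can be hard to place, and the treatment of such reads is not given in the sources used here. Flanks are mostly unique: a median of 8.49% of the 50-base words of a locus recur elsewhere in the genome. The 8 loci in which at least 50% of the words recur had no summit in any list. The 56 loci with no recurring word had a pooled summit in 44.6% of cases and held none of the reproducible ones. Among the 20 reproducible loci the share of recurring words reached at most 17.5%.

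Pooled summits were about as frequent at tRNA genes inside a protein-coding gene as outside one, while reproducible summits were more often outside. Of the 290 tRNA genes inside a protein-coding gene, 41.7% had a pooled summit, and of the 322 outside, 39.4%. For hosts on the same strand the share was 41.2% of 165 loci, and for hosts on the opposite strand 43.1% of 123. Reproducible summits lay in 5 loci inside host genes (1.72%) and in 15 outside them (4.66%). The 15 included 11 of the 180 X loci that lie outside protein-coding genes (6.11%), against 2 of the 96 X loci inside one (2.08%). On the autosomes the shares were closer, with 4 of 142 outside (2.82%) and 3 of 194 inside (1.55%). The 15 also include the C53C7, M02F4 and T23F1 pairs, each of which shares a summit.

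Protein-coding promoters were near some of the loci and not near most. The pooled summit was in a promoter window in 76 of the 248 loci (30.6%), and in 3 of the 20 reproducible ones, C28G1.t1 and the T23F1 pair. Where the tRNA gene's own middle lay outside every promoter window, 169 of 442 loci (38.2%) had a pooled summit and 17 (3.85%) a reproducible one. Where it lay inside one, 79 of 170 (46.5%) had a pooled and 3 (1.76%) a reproducible summit. Where several tRNA loci overlap in 1 region, 35.3% of 150 loci had a pooled summit, and 42.2% of the 462 lone loci.

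The promoter elements of RNA polymerase III were found in most of the genes, with and without a peak. The B box was searched as GGTTCNA and the A box as TNGNNNAG, on the strand of the gene, where N is any base. The B box was in 530 of the 612 genes (86.6%), at a median position of 51 in the gene, and in the genes of all 20 reproducible loci. A pooled summit lay in 39.6% of the loci whose gene has a B box match, and in 46.3% of the 82 without one. The A box was in 513 genes (83.8%), at a median position of 8, and in 15 of the 20 genes. With both strands searched over the whole locus, the B box was in 88.2% of tRNA loci, against 15.2% of the tiled windows sampled at 1 in 10, and the A box in 99.3%, against 91.7% of those windows. TTTT stood within 25 bases after 98.7% of the genes, against 31.3% of genome stretches of that length. It was also there in all 20 reproducible loci.

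An E2F consensus was no more frequent at tRNA loci with a peak than at those without. It was searched on both strands as TTTCCCGC, TTTCGCGC, TTTGCCGC or TTTGGCGC. It was in 22 of the 248 loci with a pooled summit (8.87%), in 33 of the 364 without one (9.07%), and in none of the 20 reproducible loci. Of all tRNA loci 8.99% had a match, and of the 427 windows with a reproducible summit 11.9%. Shares of this size give few matches among 20 loci, so their absence says little. Of the sampled windows, 9.54% of those with a pooled summit and 6.71% of those without had a match.

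A repeat of GA was more frequent upstream of the tRNA genes with a peak. GAGAGA, which was chosen after the printed sequences and their values were seen and was searched on both strands, was in 113 of the 248 loci with a pooled summit (45.6%). It was in 87 of the 364 loci without one (23.9%). Of the sampled windows, 26.3% of those with a pooled summit and 20.4% of those without had a match. It was in 13 of the 20 reproducible loci, against 41.0% of the 427 windows with a reproducible summit. Since the motif was picked from the printed loci, the count is given apart: 8 of the 10 printed reproducible loci and 5 of the 10 others had it. These counts are of loci, not of separate summits. The 8 include both loci of the C53C7 pair and the 5 both loci of the T23F1 pair, and each pair shares a summit. The difference lay in the 200 bp upstream of the gene, where 36.3% of the loci with a pooled summit and 14.8% of those without had a match. All 13 of the reproducible loci with GAGAGA had it there. Downstream of the gene the shares were 9.27% with a pooled summit and 7.97% without.

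Counted from the motif, 56.5% of the 200 tRNA loci with GAGAGA had a pooled summit, and 32.8% of the 412 without it. In replicate 1 a summit lay in 100 of the 200 loci with the motif and 136 of the 412 without, and in replicate 2 in 103 with it and 124 without. On X a pooled summit lay in 61.2% of the loci with the motif and 32.1% of those without, and on the autosomes in 53.3% with it and 33.3% without. The loci with the motif had the higher share in each of these splits. These splits and those below re-cut the same loci, with the printed ones left in. Their agreement is therefore not separate evidence for a motif picked from those loci. Among the sampled windows the gap was smaller, with a pooled summit in 16.6% of those with the motif and 12.5% of those without. Among loci of genes with 10 or more identical members, 61.0% of the 100 with GAGAGA and 33.2% of the 217 without had a pooled summit. In the proline family of 24, the counts were 5 of 8 with the motif and 2 of 16 without it. The 5 include the printed ZK899.t1 and the F46G11 pair, whose loci share a summit. Base composition moved with the peaks too. The median GC content was 41.0% over loci with a pooled summit and 38.6% over those without. In the loci above the median GC content of 39.6%, the shares with a pooled summit were 64.5% with GAGAGA and 41.9% without, and in the other loci 43.4% and 25.8%. The part of base composition in the result was not tested further.

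Genes of other small RNAs, extended in the same way, gave comparable shares. A pooled summit lay in 40.5% of tRNA loci, against 43.1% of 346 snoRNA loci and 31.0% of 129 snRNA loci. Reproducible summits lay in 3.27% of tRNA loci, lower than the 6.07% of snoRNA loci and the 10.1% of snRNA loci. On the autosomes these shares were 2.08%, 6.71% and 10.3%. On X the order differed, with 4.71% of tRNA loci and none of the 33 snoRNA or 3 snRNA loci. Over loci with a summit, the median pooled signal was 51.6 for tRNA genes, 57.2 for snoRNA genes and 56.0 for snRNA genes. On X lay 45.1% of the tRNA genes, 9.54% of the snoRNA genes and 2.33% of the snRNA genes. The median locus was 472 bp wide for tRNA genes, 530 bp for snoRNA genes and 509 bp for snRNA genes, and no test of these differences was made.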

How the data were processed

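ChIP-seq peaks of EFL-3 were analysed in 2 biological replicates of 1 group. Per the deposited file descriptions, the authors made 4 peak lists on ce11 against 1 control alignment: 1 for each replicate, 1 on the replicates pooled and 1 thresholded by the irreproducible discovery rate. The deposited signal value of each peak has no stated unit, and the deposited −log10 q-value was used only with thresholds of 0.05 and 0.1. For the aligner, the peak caller and the thresholds, nothing is given in the sources used here. The lists hold no read counts, so the depth is unknown and no interval is given.

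The tRNA genes came from Ensembl release 115, and amino acids and sequence from RefSeq, where all 612 genes matched by WormBase ID, start, end and strand. A summit was the peak start plus the deposited offset. Loci were set beside windows of 472 bp tiled over the nuclear genome, sampled at 1 in 10 for motifs. A host gene contains the whole tRNA gene. All counts were made in Python 3.11.15 with numpy 2.4.6, pandas 2.3.3 and scipy 1.17.1, and the assignment of summits was tested on simulated data.

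Named genes are those with a reproducible summit, and the 5 strongest of X, of the autosomes and of each replicate list. K11H12.t1, C48C5.t1 and the loci just outside the reproducible set were named after their values were seen. The members, lists and rules were chosen with earlier results of these data known. Alternatives were other extensions, single replicates, fewer peaks, merged loci and loci with few repeated words.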

Additional observations from a re-analysis of the deposited data

How the results depend on the processing

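With the strongest 10000 pooled peaks in place of 30000, the loci with a pooled summit fell to 155 in number, their median signal was 63.0 and the median summit position 21 bp. The reproducible count of 20 became 5 with the strongest 200 pooled peaks, and these 5 loci were all on X. The difference between X and autosomes was then 1.81 percentage points in place of 2.63. With a pooled q-value under 0.05, which was chosen after seeing the data, the count became 7. The 143 loci with both replicates became 83 with an extension of 100 bp, 237 with 500 bp and 68 with the strongest 10000 peaks. Wider loci and longer lists hold more summits by construction. The background windows were not recounted for other extensions or shorter lists, so these counts cannot show whether the excess over the genome holds. The median summit position was 33.5 bp with an extension of 100 bp and 45 bp with 500 bp. X minus autosomes, the share with a pooled summit differed by 0.104 percentage points. That difference was -4.61 with 500 bp and -6.22 to -0.906 with 1 replicate left out, so it has no stable direction. The same replicate settings gave 1.44 to 2.26 for the reproducible share, 24 to 31 bp for the median position and 27.3 to 30.3 for the median signal, whose scale is that of each list. The cause of these moves was not tested. The other alternatives kept every other result within the spread of the replicates or, for counts, within 1.5 times. No paired analysis was possible because the design holds 1 group.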
